A study of Mus musculus with 24 samples.

Results

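The genes described are 10 heat shock chaperones of the bone marrow: Hspa1a, Hspa1b, Hspa8 and Hsph1 of the Hsp70 system, Hsp90aa1 and Hsp90ab1, the co-chaperones Dnajb1 and Bag3, and Hspd1 and Hspe1 of the mitochondrial chaperonin. They were chosen by name, as chaperones known to be driven by the heat shock factor HSF1, among the 54752 genes of the deposited table. Each name matched 1 row of the table through its Ensembl ID in GENCODE M21. Of the 10 genes, 9 were tested, since Hspa1a did not exceed 1 TPM, the length-corrected share of transcripts in a library scaled to a fixed total, in any library.

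Chaperones bind unfolded proteins and help them to fold or to be removed. Hsp70 proteins hold short hydrophobic stretches of a client, J proteins such as DNAJB1 bring clients to them, and HSPH1 exchanges their nucleotide. HSP90 takes over clients that are nearly folded, many of them kinases and steroid receptors, and the ring of HSPD1 with its lid HSPE1 folds proteins inside mitochondria. When unfolded proteins accumulate, HSF1 binds heat shock elements in the promoters of these genes and their transcription rises. In the marrow, HSP70 is known to protect the erythroid factor GATA1 during red cell maturation. Nrf2, the factor missing in the knockout, drives antioxidant genes through a different element, the antioxidant response element.

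RNA was measured in bone marrow cells of 24 male C57BL/6 mice, with a library per mouse and 6 mice in each of 4 groups. WT mice (FL-WT) and mice with the Nrf2 gene knocked out (FL-KO) stayed in space for 31 days and were sampled 2 days after landing. They had been 8 weeks old when moved to the launch site, where they were acclimated before the flight. WT and Nrf2-KO mice kept on the ground, in single cages of the same design (GC-WT and GC-KO), were the controls. Marrow of the pelvis and tibia was frozen in CELLBANKER2 before RNA was extracted. After landing the flight mice were handled on the US West Coast and the ground mice stayed in Japan, so flight and the place of sampling cannot be told apart.

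The targeted gene Nfe2l2, which encodes Nrf2, was checked first. It lay between 17.05 and 26.06 TPM in GC-WT, between 11.39 and 27.26 TPM in FL-WT, between 3.6 and 7.18 TPM in GC-KO and between 2.22 and 4.31 TPM in FL-KO mice. On the ground as in flight, the highest Nrf2-KO mouse lay below the lowest WT mouse (two-sided exact permutation of rank sums, p = 0.00216 in both, which is the lowest value possible with 6 mice a group). The marrow label was met by erythroid markers, which summed to between 8.71% and 24.5% of TPM, and by mature neutrophil markers at 2.42% to 6.17%. The table holds no read counts, so the depth of each library is unknown and no counting interval can be given.

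The libraries differed in their content of small structural RNAs. Rn7s1, Rn7s2, Rn7sk, Rpph1 and Rmrp took 35.4% to 59.6% of TPM, and their share exceeded 50% in 2 libraries of GC-WT, 3 of FL-WT, 0 of GC-KO and 3 of FL-KO mice. In the FL-WT group, the 3 mice with the higher share (mice 3, 5 and 6) were below the other 3 in 7 of the 10 chaperones. The share of all genes that split in this way was not counted, so nothing particular to the chaperones is read from it. The count of genes above 1 TPM was 10325 to 11413 in GC-WT, 9347 to 10858 in FL-WT, 9918 to 11060 in GC-KO and 8748 to 9996 in FL-KO libraries. Results for the chaperones are therefore also given without the libraries above 50%. This limit marks no gap: FL-KO mouse 12 was at 49.5% and kept, and FL-KO mouse 9 at 50.6% was left out. Depth and RNA quality were not part of the table, and their part in these results was not tested.

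TPM divides by transcript length, so levels can be compared between genes on this scale. By their mean over 24 mice, the levels ran from Hspa8 (302 TPM) through Hsp90ab1 (103 TPM), Hsp90aa1 (57.3 TPM), Hspe1 (37.4 TPM), Hspd1 (18.7 TPM) and Dnajb1 (12 TPM) to Hsph1 (4.24 TPM), Bag3 (1.02 TPM), Hspa1b (0.533 TPM) and Hspa1a (0.297 TPM). The constitutive forms led this order, with Hspa8 above 98.5% of all tested genes. The stress-inducible Hsp70 genes closed it: the summed level of Hspa1a and Hspa1b was between 0.2 and 1.57 TPM in single mice. Together the 10 chaperones had a median of 636 TPM in GC-WT, 546 TPM in FL-WT, 491 TPM in GC-KO and 436 TPM in FL-KO mice.

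**Figure D1:**
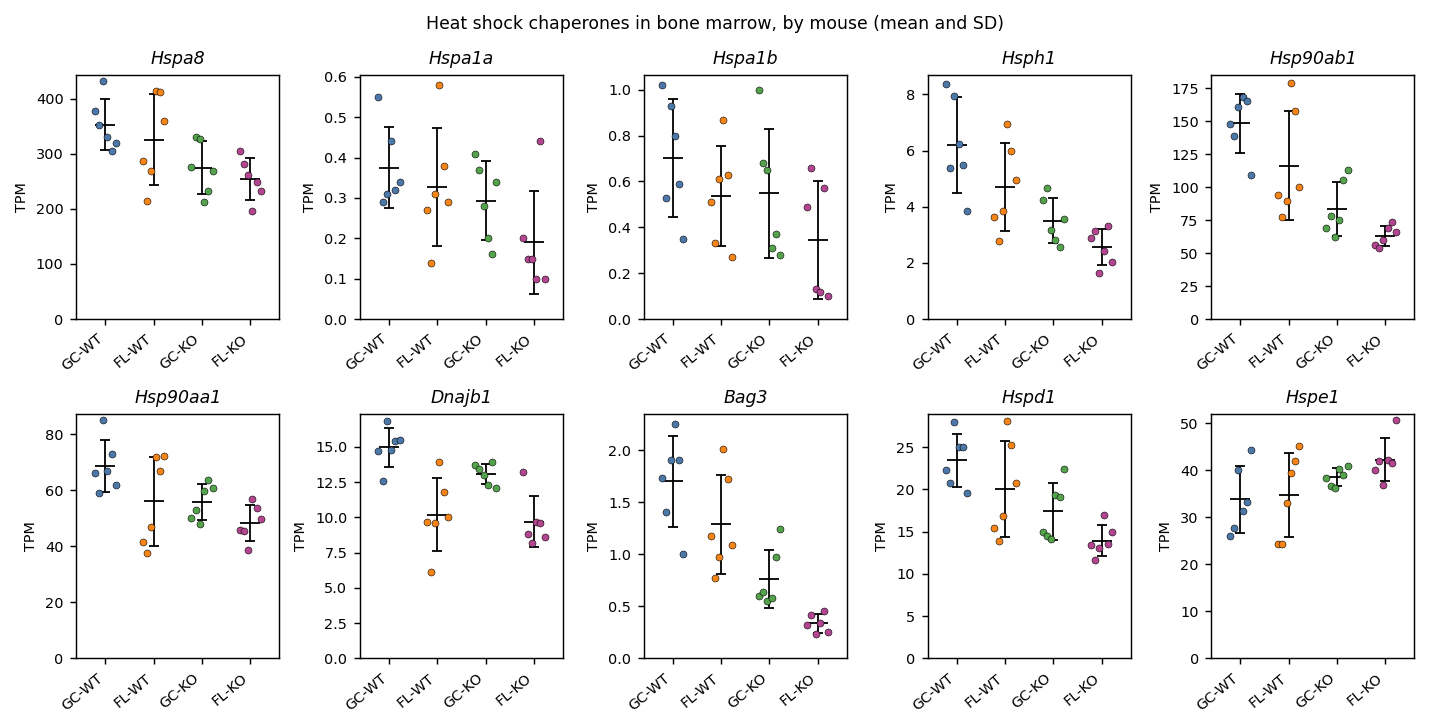
TPM of each chaperone (vertical axes, starting at 0, a scale per panel) in the 4 groups (GC-WT, FL-WT, then GC-KO, FL-KO), with a point per mouse and bars for the mean and SD of 6 mice. Of the 10 chaperones, 9 had their highest group mean in GC-WT and their lowest in FL-KO mice, and Hspe1 had the reverse.

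The promoters were read because the genes were chosen as targets of HSF1, which binds heat shock elements. The element is built of the unit NGAAN in alternating orientation, and was searched as the unit pairs GAANNTTC and TTCNNGAA, which may share letters, on both strands of RefSeq windows of 300 bases (GRCm38.p6, 250 before and 50 after each start site). Windows were given for 7 of the 10 chaperones, and those of 6 held a pair, against 17.0% of the 27025 genes with a window. Hspd1, Hspe1 and Hsph1 held 3 units in a row (GAANNTTC followed by NNGAA, or TTCNNGAA followed by NNTTC), which 0.662% of genes did. Since the chaperones were chosen as HSF1 targets, these shares are a description. The antioxidant response element core TGACNNNGC matched in the windows of Hsph1 and Dnajb1, as in those of 14% of genes. A match is a match of letters only and does not show a bound site.

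The clearest run is shared by the windows of Hspd1 and Hspe1, which are transcribed away from each other. Hspd1 (ENSMUSG00000025980.14, chromosome 1 of GRCm38, 55077835 to 55088243, minus strand) and Hspe1 (ENSMUSG00000073676.4, chromosome 1, 55088132 to 55091307, plus strand) overlap by 112 bases in the annotation. The stretch shown from chr1:55088053-55088082, on the strand of Hspe1, lies upstream of the annotated Hspe1 gene and, for Hspd1, within exon 1 of a protein-coding transcript. That of Hsph1 (chr5:149636287-149636308, minus strand) lies within exon 1 of a protein-coding transcript. Capitals mark the unit pairs.
Hspe1: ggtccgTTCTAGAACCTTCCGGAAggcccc
Hsph1: gctgcagaTTCTGGAAAGTTCt

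Hspa1a (ENSMUSG00000091971.3, chromosome 17, 34969190 to 34972156, minus strand) and Hspa1b (ENSMUSG00000090877.3, chromosome 17, 34956436 to 34959238, minus strand) are neighbouring, near-identical copies. Their 250 bases before the start site are shown because they hardly differ (chr17:34972157-34972406 and chr17:34959239-34959488, minus strand, upstream of the transcripts). Counted from 1 at the 5′ end, with the base of Hspa1a first, the differences are C44T, T47C and T249G. Each holds a single pair, in capitals.
Hspa1a: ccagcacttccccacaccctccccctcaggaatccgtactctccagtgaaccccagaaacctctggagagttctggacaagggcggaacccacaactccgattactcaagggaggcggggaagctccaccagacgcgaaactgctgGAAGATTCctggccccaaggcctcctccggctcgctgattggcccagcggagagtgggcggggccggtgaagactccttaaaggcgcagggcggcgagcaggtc
Hspa1b: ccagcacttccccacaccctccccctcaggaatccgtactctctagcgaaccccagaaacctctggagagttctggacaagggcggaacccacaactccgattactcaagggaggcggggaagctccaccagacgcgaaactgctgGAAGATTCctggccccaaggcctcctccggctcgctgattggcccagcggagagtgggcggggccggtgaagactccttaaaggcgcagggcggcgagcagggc

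Differences between groups are given as log2 fold changes of TPM + 1, from a limma fit of all 24 libraries. A gene was said to have fallen or risen at a Benjamini-Hochberg adjusted p under 0.1 over all 12373 tested genes, and was counted as a DEG when its fold change was also at least 2. The values of most genes were lower with flight and with the knockout. Their median log2 fold change with flight was -0.24 for WT mice (FL-WT vs. GC-WT) and -0.29 for Nrf2-KO mice (FL-KO vs. GC-KO). With the knockout it was -0.22 on the ground (GC-KO vs. GC-WT) and -0.25 in flight (FL-KO vs. FL-WT). A change relative to this shift is given as such, and a second scaling, by the median of ratios between libraries, sets the shift to about 0. The comparisons share groups, so they are not independent of each other. In bulk RNA, fewer cells that express a gene and less RNA per cell cannot be told apart.

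No chaperone was a DEG in any of the 4 comparisons or in the interaction (limma, 0 of 9 tested). Of all genes, 0.938% were lower and 0.0647% higher DEGs with flight in WT mice, and 2.13% and 0.0% in Nrf2-KO mice. With the knockout the shares were 3.04% and 0.129% on the ground, and 8.36% and 0.097% in flight. At an unadjusted p under 0.05, 3 chaperones were lower with flight in WT and 3 in Nrf2-KO mice, against 41.7% and 52.2% of all genes, and 0 were higher, against 1.1% and 0.291%. With the knockout 5 were lower on the ground and 5 in flight, against 43.4% and 47.3%. On the ground 0 were higher, against 3.29%, and in flight 1 was, against 1.91%. In the interaction 0 were at this threshold, where 3.03% of genes were lower and 0.428% higher.

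Groups without overlap were also counted, as a description by rank. With flight, 0 chaperones were separated in WT mice, where 4.19% of genes were lower and 0.097% higher, and 1 was lower in Nrf2-KO mice (Bag3), where 18.4% were lower and 0.0323% higher. With the knockout, 0 were separated on the ground, where 9.15% of genes were lower and 0.218% higher, and 2 were lower in flight (Hsp90ab1 and Bag3), where 20.6% were lower and 0.307% higher.

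In GC-KO mice, 5 of the 9 tested chaperones were lower than in GC-WT mice and 0 were higher, against 42.9% of all genes lower and 3.13% higher. They were Hspa8, Hsph1, Hsp90ab1, Bag3 and Hspd1. The share of chaperones was close to that of all genes, and their median log2 fold change was -0.37 against -0.22. With median-of-ratios scaling, 2 were lower (Hsp90ab1 and Bag3) and 1 was higher (Hspe1), against 27.8% and 29.8% of all genes.

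In flight, the same 5 genes were lower in FL-KO than in FL-WT mice, and Hspe1 was higher, against 47.2% of all genes lower and 1.91% higher. The median of the chaperones was -0.33 against -0.25. With median-of-ratios scaling, 2 were lower (Hsp90ab1 and Bag3) and 3 were higher (Hsp90aa1, Dnajb1 and Hspe1), against 31.2% and 35.2% of all genes. Without the libraries above 50% small RNA, 7 chaperones were lower with the knockout on the ground and 6 in flight, against 51.7% and 59.0% of all genes, and Hspe1 did not pass in either.

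Hsp90ab1, the constitutive HSP90 (ENSMUSG00000023944.14, chromosome 17, 45567775 to 45573271, minus strand), had the largest log2 fold change of TPM + 1 between genotypes among the chaperones as deposited. Bag3 moved further with median-of-ratios scaling in flight. By the ratio of mean TPM, Bag3 moved further on the ground and in flight, at 0.449 and 0.261 against 0.563 and 0.541 for Hsp90ab1. On the ground, the lowest, median and highest levels of Hsp90ab1 were 109, 155 and 168 TPM in GC-WT and 62.31, 76.35 and 113 TPM in GC-KO mice. In flight, they were 77.55, 97.1 and 179 TPM in FL-WT and 53.84, 62.68 and 73.67 TPM in FL-KO mice. On the ground 1 GC-KO mouse lay above the lowest GC-WT mouse, and in flight all 6 FL-KO mice were below all 6 FL-WT mice, which 20.6% of all genes also showed. The log2 fold change was -0.84 (SE 0.18, limma adjusted p = 0.000856) in GC-KO vs. GC-WT, and -0.81 (SE 0.18, limma adjusted p = 0.000499) in FL-KO vs. FL-WT. Relative to the shift of all genes, these were -0.62 and -0.56. With median-of-ratios scaling they were -0.48 (limma adjusted p = 0.000657) and -0.38 (limma adjusted p = 0.00271). Over all alternatives and left-out libraries, the adjusted p of Hsp90ab1 stayed between 5.05e-05 and 0.0076 on the ground and between 0.000128 and 0.00369 in flight.

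The stress-inducible form Hsp90aa1 passed in neither comparison of genotypes as deposited. Its median was 66.67 TPM in GC-WT, 56.39 TPM in GC-KO, 56.93 TPM in FL-WT and 47.77 TPM in FL-KO mice, and the groups overlapped in each comparison. The log2 fold change was -0.29 (SE 0.15, limma adjusted p = 0.121) with the knockout on the ground and -0.17 (SE 0.15, limma adjusted p = 0.377) in flight. With median-of-ratios scaling, these turned to 0.06 (limma adjusted p = 0.583) and 0.26 (limma adjusted p = 0.0133), so that Hsp90aa1 was higher in the knockout in flight on that scale. The settings that leave out small RNAs or the libraries rich in them went the opposite way. With the small RNAs left out of TPM, it was lower on the ground, at -0.41 (limma adjusted p = 0.00389), and without the libraries above 50% small RNA it was lower in both comparisons, at -0.35 (limma adjusted p = 0.016) and -0.49 (limma adjusted p = 0.00712). The median of all genes was -0.35 in the former setting on the ground, and -0.28 and -0.42 in the latter. These falls of Hsp90aa1 thus lay close to the shift of all genes. The highest adjusted p of any alternative was 0.583 on the ground and 0.966 in flight.

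The ratio of 2 genes in a library does not change with the scaling between libraries, so the balance of both HSP90 forms was compared directly. A library's trend with GC content and length does stay in a ratio, and the transcripts are 43.7% (Hsp90aa1) and 51.0% GC (Hsp90ab1). Hsp90aa1/Hsp90ab1 ran from 0.398 to 0.568 with a median of 0.445 in GC-WT, and from 0.536 to 0.80 with a median of 0.705 in GC-KO mice. It ran from 0.401 to 0.7205 with a median of 0.462 in FL-WT, and from 0.645 to 0.845 with a median of 0.786 in FL-KO mice. The knockout was higher by 1.58-fold on the ground and 1.7-fold in flight, with overlapping groups in both (two-sided exact permutation of rank sums, adjusted over 16 ratio tests, p = 0.0173 for each). Without any single library, the unadjusted exact p was at most 0.00866 in both comparisons. The ratio was not tested with the GC content and length trend removed. In that setting the log2 fold changes with the knockout were -0.15 and -0.01 for Hsp90aa1 (ground, then flight). For Hsp90ab1 they were -0.53 and -0.41. The ratio showed no such difference between flight and ground mice, at 1.04-fold in WT and 1.12-fold in Nrf2-KO mice (exact permutation, adjusted p = 1.0 and 0.211).

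Bag3, a co-chaperone that joins HSP70 to selective autophagy (ENSMUSG00000030847.8, chromosome 7, 128523616 to 128546981, plus strand), was low in all groups and fell in the knockout. Its lowest, median and highest levels were 1.0, 1.82 and 2.25 TPM in GC-WT and 0.55, 0.62 and 1.24 TPM in GC-KO mice. They were 0.77, 1.135 and 2.01 TPM in FL-WT and 0.23, 0.33 and 0.46 TPM in FL-KO mice. The FL-KO group lay below all FL-WT and all GC-KO mice. The ratio of mean TPM was 0.449 with the knockout on the ground and 0.261 in flight, while the log2 fold change of TPM + 1, which understates low genes, was -0.61 (SE 0.13, limma adjusted p = 0.000975) and -0.75 (SE 0.13, limma adjusted p = 4.51e-05). Bag3 also fell in FL-KO vs. GC-KO, by 0.39 on the log2 scale (SE 0.13, limma adjusted p = 0.0222). Its transcript is 56.1% GC, above that of 85.7% of tested genes. After removal of each library's trend with GC content and length, the log2 fold changes were -0.16 (limma adjusted p = 0.0884) and -0.13 (limma adjusted p = 0.17) between genotypes, and the fall in FL-KO vs. GC-KO turned to 0.06 (limma adjusted p = 0.595). Over all alternatives, the adjusted p in these 3 comparisons ran from 5.9e-05 to 0.0884, from 4.1e-06 to 0.17 and from 0.00208 to 0.595.

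**Figure D2:**
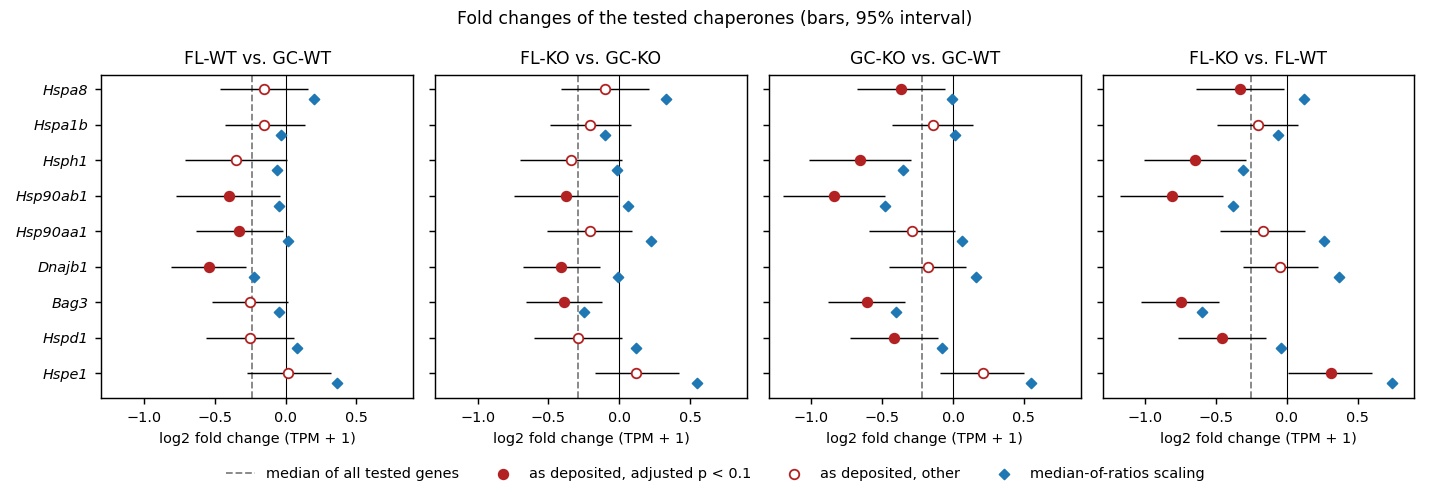
Log2 fold change of TPM + 1 (horizontal axis) of the 9 tested chaperones in 4 comparisons. Circles with 95% intervals are the values as deposited, filled at an adjusted p under 0.1, diamonds the values with median-of-ratios scaling and the dashed line the median of all tested genes (-0.29 to -0.22). Hsp90ab1 and Bag3 lay left of 0 on both scales in the comparisons between genotypes, and Hspe1 right of the dashed line in all 4.

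Hspa8, the constitutive Hsp70, averaged 353 ± 46.2 TPM in GC-WT and 274 ± 48.0 TPM in GC-KO mice on the ground, and 326 ± 82.0 TPM in FL-WT and 255 ± 37.6 TPM in FL-KO mice in flight (SD, n = 6 each). Mice overlapped between groups in every comparison. It fell by 0.37 (SE 0.15, limma adjusted p = 0.0527) in GC-KO vs. GC-WT and by 0.33 (SE 0.15, limma adjusted p = 0.0818) in FL-KO vs. FL-WT on the log2 scale. With median-of-ratios scaling these were -0.01 and 0.12, and the call was lost without GC-WT mouse 6 or GC-KO mouse 9 on the ground (limma adjusted p up to 0.132), where the log2 fold change stayed between -0.43 and -0.3. In flight it was lost without any one of FL-WT mice 7, 8 and 10 or FL-KO mice 4, 9, 11 and 12 (limma adjusted p up to 0.218), with a log2 fold change between -0.44 and -0.25. Without the libraries above 50% small RNA, Hspa8 was lower in both comparisons of genotypes, at -0.34 (limma adjusted p = 0.0564) on the ground and -0.6 (limma adjusted p = 0.0107) in flight. The median of all genes in that setting was -0.28 on the ground and -0.42 in flight.

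Hsph1, the nucleotide exchange factor of the Hsp110 family, lay between Dnajb1 and Bag3 in level. Its median was 5.85 TPM in GC-WT, 4.405 TPM in FL-WT, 3.37 TPM in GC-KO and 2.655 TPM in FL-KO mice. It fell by 0.66 (SE 0.18, limma adjusted p = 0.00444) in GC-KO vs. GC-WT and by 0.65 (SE 0.18, limma adjusted p = 0.0037) in FL-KO vs. FL-WT on the log2 scale. Both kept their direction with median-of-ratios scaling, at -0.35 and -0.31, but not their call (limma adjusted p = 0.102 and 0.141). Over all alternatives the adjusted p ran up to 0.173 and 0.292.

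The inducible Hspa1a and Hspa1b had medians under 1 TPM in every group. Hspa1b had medians of 0.695 TPM in GC-WT, 0.56 TPM in FL-WT, 0.51 TPM in GC-KO and 0.31 TPM in FL-KO mice. Hspa1a had medians of 0.33, 0.3, 0.31 and 0.15 TPM in the same order. All groups overlapped, and 3 FL-KO mice lay at 0.1 to 0.13 TPM of Hspa1b while the other 3 lay at 0.49 to 0.66 TPM. Hspa1b passed the filter through 1 library only, a GC-WT mouse at 1.02 TPM, and its log2 fold changes ran from -0.21 to -0.14 in the 4 comparisons (limma adjusted p from 0.218 to 0.442). Its transcript is 58.1% GC, above that of 92.8% of tested genes. After removal of the trend with GC content and length, the log2 fold change of Hspa1b with the knockout was 0.37 (limma adjusted p = 0.0947) on the ground and 0.52 (limma adjusted p = 0.0159) in flight. Its mean TPM was lower in the knockout, at ratios of 0.78 and 0.643. The direction for Hspa1b thus depended on the setting, and these values are not read as a rise. The cause of the change of sign was not tested. Of the 31-base words of the Hspa1a transcript, 63.8% occur in that of Hspa1b, so the split of reads between both copies is uncertain. No comparison of the ratio of their sum to Hspa8 passed (exact permutation, smallest adjusted p = 0.24 of 16 tests).

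The subunits of the mitochondrial chaperonin had different profiles. Hspd1, the ring subunit, had medians of 23.66 TPM in GC-WT, 18.72 TPM in FL-WT, 17.02 TPM in GC-KO and 13.43 TPM in FL-KO mice. It fell by 0.42 (SE 0.15, limma adjusted p = 0.0275) in GC-KO vs. GC-WT and by 0.46 (SE 0.15, limma adjusted p = 0.0134) in FL-KO vs. FL-WT on the log2 scale. With median-of-ratios scaling these were -0.08 and -0.04 (limma adjusted p = 0.43 and 0.686), the former being the highest of any alternative on the ground. In flight the highest was 0.794.

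Hspe1, the lid subunit, had medians of 32.33 TPM in GC-WT, 36.31 TPM in FL-WT, 38.69 TPM in GC-KO and 41.83 TPM in FL-KO mice. It rose in FL-KO vs. FL-WT by 0.31 (SE 0.14, limma adjusted p = 0.0857), with overlapping groups, and lost the call without any one of FL-WT mice 3, 5 and 6 or FL-KO mice 1, 2, 9, 11 and 12 (limma adjusted p up to 0.236), while the log2 fold change stayed between 0.22 and 0.39. The log2 fold change was 0.21 (SE 0.14, limma adjusted p = 0.269) in GC-KO vs. GC-WT. Relative to the shift of all genes these were 0.56 and 0.43, above 98.1% and 93.4% of tested genes. With median-of-ratios scaling Hspe1 was higher by 0.74 (limma adjusted p = 4.03e-05) and 0.55 (limma adjusted p = 0.00134), and without the libraries above 50% small RNA by 0.06 (limma adjusted p = 0.743) and 0.06 (limma adjusted p = 0.663). The median of all genes in the latter setting was -0.42 in flight and -0.28 on the ground, so Hspe1 still lay above the shift. After removal of the trend with GC content and length, it was at 0.22 (limma adjusted p = 0.0459) in flight and 0.12 (limma adjusted p = 0.292) on the ground. Rows named as Hspe1 pseudogenes were all listed at 0, and those of Hspd1 reached 0.41 TPM at most.

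Of the 4 ratios compared, Hspe1/Hspd1 had the largest fold between genotypes. It ran from 1.171 to 2.262 with a median of 1.34 in GC-WT, and from 1.833 to 2.574 with a median of 2.31 in GC-KO mice. It ran from 1.403 to 2.188 with a median of 1.71 in FL-WT, and from 2.481 to 3.637 with a median of 3.04 in FL-KO mice. In flight the genotypes did not overlap, and the share of other gene pairs whose ratios separate in this way was not counted. The knockout was higher by 1.73-fold on the ground and 1.78-fold in flight (two-sided exact permutation of rank sums, adjusted over 16 tests, p = 0.0404 and 0.0173). The ratio was also higher in FL-KO than in GC-KO mice, by 1.32-fold (exact permutation, adjusted p = 0.0404), and at 1.28-fold in FL-WT vs. GC-WT it did not pass (exact permutation, adjusted p = 0.165). Without GC-WT mouse 10, at 2.26, the fold in WT mice was again 1.28 and the unadjusted exact permutation p was 0.00866 in place of 0.0931. Whether the effect of flight on the ratio differed between genotypes was not tested. Without the libraries above 50% small RNA, the ratio was 1.67-fold with the knockout on the ground and 1.86-fold in flight, and 1.34-fold with flight in Nrf2-KO and 1.2-fold in WT mice (exact permutation, unadjusted p = 0.0667, 0.1, 0.0238 and 0.629, where 0.1 is the smallest p that 3 mice against 3 allow). Hspe1 has a transcript of 964 bases, against 2423 for Hspd1, and in the annotation the ends of both genes overlap. A library's trend with GC content and length stays in the ratio, which was not tested with that trend removed. In that setting Hspd1 stood at -0.27 with the knockout on the ground and in flight (limma adjusted p = 0.0234 and 0.0167). Hspe1 stood at 0.12 and 0.22 in the same order. The kit kept strand, and whether the counting used it is not given in the sources used here.

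**Figure D3:**
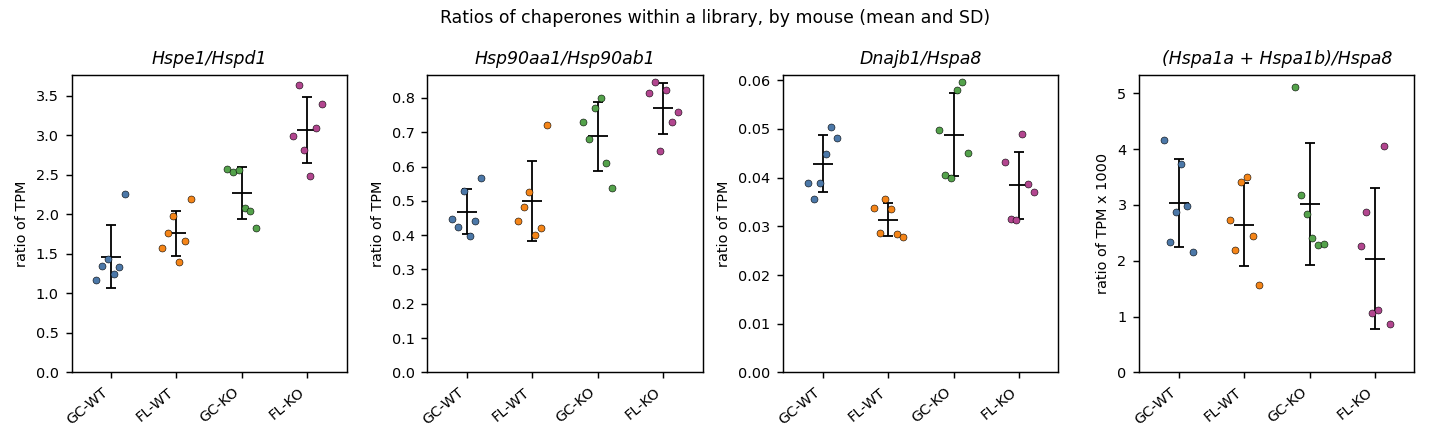
Ratios of TPM within a library (vertical axes, starting at 0) in the 4 groups, with a point per mouse and bars for the mean and SD of 6 mice. Hspe1/Hspd1 and Hsp90aa1/Hsp90ab1 were higher in both Nrf2-KO groups, and Dnajb1/Hspa8 was lower in FL-WT than in every GC-WT mouse.

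In FL-WT vs. GC-WT, 3 of the 9 tested chaperones were lower (Hsp90aa1, Hsp90ab1 and Dnajb1) and 0 higher, against 39.0% and 0.994% of all genes. Their median was -0.25 against -0.24 for all genes. In FL-KO vs. GC-KO, 3 were lower (Hsp90ab1, Dnajb1 and Bag3), against 53.1% of all genes, and 0 were higher, against 0.299%, with a median of -0.29 against -0.29. With median-of-ratios scaling, 0 were lower and 1 was higher (Hspe1) in WT mice, against 15.9% and 17.4% of all genes, and 1 was lower (Bag3) and 2 were higher (Hsp90aa1 and Hspe1) in Nrf2-KO mice, against 21.6% and 18.1%. Without the libraries above 50% small RNA, 0 were lower in FL-WT vs. GC-WT and 1 (Dnajb1) in FL-KO vs. GC-KO, against 5.62% and 30.7% of all genes.

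Dnajb1, the J protein that hands clients to Hsp70 (ENSMUSG00000005483.10, chromosome 8, 83608193 to 83612653, plus strand), had the largest log2 fold change with flight among the chaperones in WT mice as deposited. Its lowest, median and highest levels were 12.58, 15.13 and 16.81 TPM in GC-WT and 6.15, 9.855 and 13.9 TPM in FL-WT mice. They were 12.13, 13.21 and 13.86 TPM in GC-KO and 8.18, 9.235 and 13.16 TPM in FL-KO mice. In each genotype a single flight mouse reached into the ground range. Dnajb1 fell by 0.54 (SE 0.13, limma adjusted p = 0.00426) in FL-WT vs. GC-WT and by 0.41 (SE 0.13, limma adjusted p = 0.0157) in FL-KO vs. GC-KO on the log2 scale. In Nrf2-KO mice the change of Bag3 was larger than that of Dnajb1 on scales that compress low values less: the ratio of mean TPM was 0.441 for Bag3 and 0.741 for Dnajb1, and with a pseudocount of 0.1 the log2 fold changes were -0.95 and -0.45. Relative to the shift of all genes, Dnajb1 stood at -0.3 in WT and -0.12 in Nrf2-KO mice. With median-of-ratios scaling it stood at -0.22 (limma adjusted p = 0.178) and -0.01 (limma adjusted p = 0.962), and over all alternatives the adjusted p ran from 0.000151 to 0.178 and from 0.00547 to 0.985.

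Against its partner Hspa8, Dnajb1 was lower in FL-WT than in GC-WT mice. Dnajb1/Hspa8 ran from 0.0357 to 0.0505 with a median of 0.0419 in GC-WT and from 0.0279 to 0.0356 with a median of 0.0311 in FL-WT mice. All 6 FL-WT mice were below all 6 GC-WT mice (0.743-fold, two-sided exact permutation of rank sums, adjusted over 16 tests, p = 0.0173), and this remained so without the libraries above 50% small RNA (0.612-fold, exact permutation, unadjusted p = 0.0571, the smallest that 3 mice against 4 allow). The highest FL-WT mouse, at 0.03558, lay just below the lowest GC-WT mouse, at 0.03567. How many other pairs of genes have ratios that separate in this way was not counted. A library's trend with GC content and length stays in this ratio as well. In Nrf2-KO mice the medians were 0.0474 on the ground and 0.0378 in flight, with overlap (0.798-fold, exact permutation, adjusted p = 0.094), and leaving out 1 mouse took the unadjusted exact p from 0.0411 to between 0.0173 and 0.0823. Between genotypes it was 1.13-fold on the ground and 1.21-fold in flight (exact permutation, adjusted p = 0.24 and 0.13).

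The calls of the HSP90 genes with flight lay close to the threshold. Hsp90ab1 fell by 0.4 (SE 0.18, limma adjusted p = 0.0847) in WT and by 0.38 (SE 0.18, limma adjusted p = 0.0846) in Nrf2-KO mice, and Hsp90aa1 by 0.33 (SE 0.15, limma adjusted p = 0.0915) in WT mice, on the log2 scale. Hsp90ab1 in WT mice lost its call without any one of GC-WT mice 3, 5, 6, 7 and 8 or FL-WT mice 3, 5, 6 and 10 (limma adjusted p up to 0.241). In Nrf2-KO mice it did so without GC-KO mouse 11 or 12 or FL-KO mouse 1, 2 or 4 (limma adjusted p up to 0.212), and Hsp90aa1 without GC-WT mouse 6, 7 or 8 or FL-WT mouse 3, 5 or 6 (limma adjusted p up to 0.274). Over the left-out libraries the log2 fold change ran from -0.54 to -0.3 and from -0.45 to -0.28 for Hsp90ab1, and from -0.41 to -0.22 for Hsp90aa1. With median-of-ratios scaling Hsp90aa1 turned to 0.02 and Hsp90ab1 in Nrf2-KO mice to 0.06, and Hsp90ab1 in WT mice stood at -0.05. Without the libraries above 50% small RNA, Hsp90ab1 was at -0.07 (limma adjusted p = 0.927) in WT and -0.33 (limma adjusted p = 0.256) in Nrf2-KO mice, and Hsp90aa1 at -0.02 (limma adjusted p = 0.967) in WT mice. For Hspa8, the log2 fold change between flight and ground was -0.15 (95% interval -0.46 to 0.16) in WT and -0.1 (95% interval -0.41 to 0.21) in Nrf2-KO mice. For Hspe1, it was 0.02 (95% interval -0.27 to 0.32) and 0.12 (95% interval -0.17 to 0.42).

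The effect of flight was not shown to differ between genotypes for any chaperone. The interaction had a limma adjusted p of 1.0 for all 9, and the share of all genes that passed was 0.0162%. For Hsp90ab1 it was 0.03 on the log2 scale (95% interval -0.49 to 0.54), for Bag3 -0.14 (95% interval -0.52 to 0.24) and for Dnajb1 0.13 (95% interval -0.25 to 0.51).

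The mRNA of HSF1 itself was lower in the knockout. Hsf1 averaged 5.69 ± 0.722 TPM in GC-WT and 2.95 ± 0.856 TPM in GC-KO mice on the ground, and 4.49 ± 1.81 TPM in FL-WT and 1.61 ± 0.258 TPM in FL-KO mice in flight (SD, n = 6 each). It fell by 0.78 (SE 0.16, limma adjusted p = 0.000695) in GC-KO vs. GC-WT, by 1.02 (SE 0.16, limma adjusted p = 1.2e-05) in FL-KO vs. FL-WT and by 0.58 (SE 0.16, limma adjusted p = 0.00655) in FL-KO vs. GC-KO. Median-of-ratios scaling left -0.48, -0.72 and -0.29. After removal of the trend with GC content and length, these were -0.33 (limma adjusted p = 0.00208), -0.43 (limma adjusted p = 7.69e-05) and -0.14 (limma adjusted p = 0.16). Hsf2, a related factor, was at 1.15, 1.05, 0.922 and 0.797 TPM in the 4 groups (GC-WT, FL-WT, then GC-KO, FL-KO) and passed in no comparison as deposited (limma, smallest adjusted p = 0.135). Vcp, an ATPase that extracts misfolded proteins, fell from 32.3 ± 6.07 TPM in GC-WT to 17.5 ± 5.8 TPM in GC-KO mice (SD, n = 6) and was at 26.2 ± 10.2 TPM in FL-WT and 9.18 ± 1.74 TPM in FL-KO mice.

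Among the other J proteins, 4 of 11 tested genes fell with flight in WT and 8 in Nrf2-KO mice, 3 fell in each comparison of genotypes, and 0 rose. Of all genes, 39.0% and 53.1% fell with flight (WT, then Nrf2-KO) and 42.9% and 47.2% with the knockout (ground, then flight). On the median-of-ratios scale, 5 and 8 of them were higher with the knockout, against 29.8% and 35.2% of all genes. Dnajb2 and Dnaja4, both cytosolic J proteins, had the largest falls in flight of the list. In WT mice, Dnajb2 went from 21.9 ± 4.79 TPM on the ground to 11.3 ± 2.37 TPM in flight, and in Nrf2-KO mice from 22.4 ± 5.07 TPM to 10.2 ± 1.23 TPM (SD, n = 6). Its log2 fold change was -0.89 (SE 0.15, limma adjusted p = 0.000271) and -1.04 (SE 0.15, limma adjusted p = 3.33e-05). Dnaja4 went from 7.64 ± 1.92 TPM to 3.6 ± 0.806 TPM and from 8.13 ± 1.35 TPM to 3.98 ± 0.709 TPM (SD, n = 6), in the same order. Both kept their direction with median-of-ratios scaling, at -0.55 and -0.64 for Dnajb2 and -0.59 and -0.51 for Dnaja4.

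Of 19 co-chaperones of Hsp70 and HSP90, 5 fell with flight in WT and 10 in Nrf2-KO mice, 12 fell with the knockout on the ground and 11 in flight, and 0 rose. The shares of all genes were 39.0%, 53.1%, 42.9% and 47.2% in this order. The median of the list was above that of all genes by 0.02 and 0.03 with flight, and differed from it by -0.16 and -0.05 with the knockout. With median-of-ratios scaling, 0, 1, 7 and 7 were lower and 3, 7, 4 and 7 higher, in the same order. Of all genes, 15.9%, 21.6%, 27.8% and 31.2% were then lower and 17.4%, 18.1%, 29.8% and 35.2% higher. Bag6, which guards newly made membrane proteins, went from 17.4 ± 4.04 TPM in GC-WT to 7.47 ± 3.23 TPM in GC-KO and from 12.4 ± 5.02 TPM in FL-WT to 2.57 ± 0.617 TPM in FL-KO mice (n = 6, SD). Tomm34, which links both chaperones to mitochondrial import, went from 8.43 ± 1.0 TPM to 4.2 ± 1.64 TPM and from 6.36 ± 2.47 TPM to 2.7 ± 0.561 TPM. The log2 fold change between genotypes was -1.17 and -1.84 for Bag6 and -0.91 and -0.94 for Tomm34 (limma, highest adjusted p = 0.000666). With median-of-ratios scaling, these were -0.84, -1.51, -0.6 and -0.6, and after removal of the trend with GC content and length -0.55, -0.97, -0.5 and -0.37.

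The 14 tested chaperones of the endoplasmic reticulum were mostly lower in the knockout as deposited. In FL-WT vs. GC-WT 0 of 14 fell (limma, and 0 at an unadjusted p under 0.05), while 7 fell with flight in Nrf2-KO mice. With the knockout, 10 fell on the ground and 11 in flight. The shares of all genes that fell were 39.0%, 53.1%, 42.9% and 47.2% in this order of comparisons. The medians were -0.12, -0.27, -0.47 and -0.66, against -0.24, -0.29, -0.22 and -0.25 for all genes. With median-of-ratios scaling the medians were 0.22, 0.13, -0.13 and -0.24. On that scale 8 and 6 genes were higher and 0 lower with flight. With the knockout, 7 and 8 were lower and 3 and 3 higher. Of all genes, 17.4%, 18.1%, 29.8% and 35.2% were then higher and 15.9%, 21.6%, 27.8% and 31.2% lower, in the order above. After removal of the trend with GC content and length, 9 were lower in each comparison of genotypes, against 22.4% and 24.3% of all genes. Hyou1, an Hsp110 relative of that compartment, fell from 12.1 ± 2.97 TPM in GC-WT to 5.92 ± 1.71 TPM in GC-KO and was at 10.8 ± 4.16 TPM in FL-WT and 3.56 ± 0.74 TPM in FL-KO mice (SD, n = 6). Calr, a chaperone of glycoproteins, was at 92.5, 51.5, 78.7 and 33.9 TPM in GC-WT, GC-KO, FL-WT and FL-KO mice.

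Of 14 genes of the TRiC chaperonin and prefoldin, 0 and 3 fell with flight (WT, then Nrf2-KO; limma, 0 at an unadjusted p under 0.05 in WT), and 3 and 4 with the knockout (ground, then flight). Vbp1, a prefoldin subunit, rose with the knockout on the ground, by 0.35 on the log2 scale. Of all genes, 39.0% and 53.1% fell with flight and 42.9% and 47.2% with the knockout, so that the share of the TRiC and prefoldin genes was lower in each comparison. With median-of-ratios scaling, 7, 10, 9 and 10 of them were higher, against 17.4%, 18.1%, 29.8% and 35.2% of all genes. After removal of the trend with GC content and length, 1, 1, 2 and 3 were higher, against 17.4%, 19.5%, 23.9% and 29.8%. In that setting 0, 1, 3 and 4 were lower, against 15.2%, 15.6%, 22.4% and 24.3%. Of 5 other Hsp70 and Hsp110 genes tested, 3 and 4 fell with flight and 2 and 3 with the knockout, among them Hspa4, by 0.6 and 0.71 on the log2 scale between genotypes. Of 5 heat shock factors and regulators, 0 and 3 fell with flight (limma, 1 at an unadjusted p under 0.05 in WT) and 3 and 3 with the knockout. Of 11 other mitochondrial chaperones and proteases, 2 and 7 fell with flight and 5 and 8 with the knockout. Of 6 small heat shock proteins, 2 were tested and 1 was lower in each comparison.

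**Figure D4:**
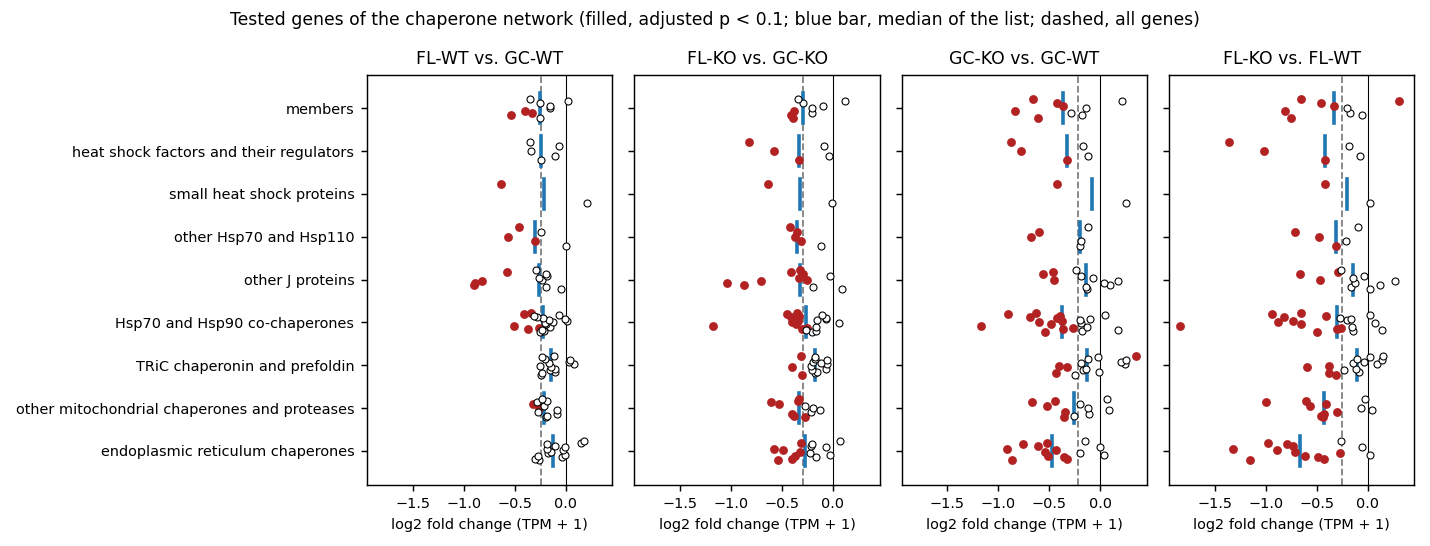
Log2 fold change of TPM + 1 (horizontal axis) of each tested gene of the 10 chaperones (members) and of 8 further lists (rows) in 4 comparisons. Filled points passed an adjusted p under 0.1, the blue bar is the list's median and the dashed line the median of all tested genes. The median of the endoplasmic reticulum list moved from -0.12 in FL-WT vs. GC-WT to -0.66 in FL-KO vs. FL-WT.

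Immediate early genes, which respond to handling of cells, moved unevenly. In FL-WT vs. GC-WT, 2 of 11 tested were lower and 1, Fos, was higher, at 8.35 ± 1.88 TPM in FL-WT against 5.3 ± 2.58 TPM in GC-WT mice (SD, n = 6). With flight in Nrf2-KO mice 3 were lower, and with the knockout 5 were lower on the ground and 5 in flight. Of all genes, 39.0% were lower and 0.994% higher with flight in WT mice, 53.1% lower in Nrf2-KO mice, and 42.9% and 47.2% lower with the knockout. The immediate early genes summed to 186 to 213 TPM in GC-WT, 143 to 228 TPM in FL-WT, 121 to 194 TPM in GC-KO and 91.8 to 185 TPM in FL-KO mice.

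Markers of cell types moved beside the chaperones. Of 10 B progenitor markers, 10 were lower in each comparison with flight and 6 in each comparison of genotypes, and their summed level ranged from 221 to 318 TPM in GC-WT, 99.6 to 257 TPM in FL-WT, 142 to 214 TPM in GC-KO and 79.8 to 132 TPM in FL-KO mice. Of 6 secondary granule markers of neutrophils, 4 and 5 were lower in the knockout on the ground and in flight, and 3 were higher in FL-WT vs. GC-WT, with sums of 7870 to 10600 TPM, 7620 to 14400 TPM, 5710 to 9290 TPM and 5540 to 7800 TPM in the same order of groups. Of 13 erythroid markers tested, 8 and 9 were lower in flight in WT and Nrf2-KO mice, and of 8 megakaryocyte markers 6 and 8, against 39.0% and 53.1% of all genes. With the knockout, on the ground and then in flight, 2 and 2 of 5 promyelocyte markers and 3 and 3 of 5 tested stem and progenitor markers were lower, against 42.9% and 47.2% of all genes. The summed promyelocyte markers ranged from 650 to 1020 TPM in GC-WT, 556 to 1250 TPM in FL-WT, 409 to 845 TPM in GC-KO and 369 to 523 TPM in FL-KO mice. The stem and progenitor sum was 9.36 to 17.3 TPM, 7.97 to 16.5 TPM, 6.61 to 12.9 TPM and 5.54 to 8.25 TPM in the same order of groups. Of the other lists, 2 and 4 of 8 monocyte and macrophage, 2 and 4 of 6 mature neutrophil, 2 and 4 of 8 megakaryocyte, 1 and 3 of 7 T and NK, 1 and 2 of 4 tested plasma cell and 3 and 3 of 13 erythroid markers were lower with the knockout. On the ground 3 erythroid, 2 mature neutrophil and 1 T and NK marker were higher with the knockout, against 3.13% of all genes. In flight 2 erythroid markers were higher, against 1.91%. With median-of-ratios scaling, 8 and 7 B progenitor markers were lower with flight and 6 and 3 with the knockout, and 4 and 4 secondary granule markers with the knockout. On that scale 8 and 9 erythroid markers were higher and 0 and 3 lower with the knockout. Of all genes, 29.8% and 35.2% were then higher and 27.8% and 31.2% lower with the knockout, and 15.9% and 21.6% lower with flight. No marker of these lists was at 0 in every library. The part of cell composition in the values of the chaperones was not tested.

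The 5 genes outside the lists with the profile most like the mean of the chaperones over 24 libraries were Snx3 (Pearson r = 0.93), Kmt5a (0.92), Ppp1r10, Lin37 and Top1 (0.91 each), among 4892 genes that averaged 5 TPM or more. The median r of these genes was 0.72 and 28.5% exceeded 0.8, and all 24 libraries share the shift of all genes. Among the chaperones themselves, Hsp90ab1 went with Bag3 at r = 0.97 and with Hspd1 at 0.94. With median-of-ratios scaling these were 0.88 and 0.47. Hspd1 and Hspe1 had an r of -0.02 as deposited and 0.13 with that scaling.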

How the data were processed

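Per the labels and the study's methods, the authors isolated RNA of the frozen marrow cells in ISOGEN-LS, sequenced libraries of a directional MGIEasy kit on a DNBSEQ-G400, and list STAR 2.6.1, RSEM 1.3.1 and GRCm38 (mm10) for mapping and TPM. The deposited values are TPM, and columns sum to between 999999.5 and 1000001.1. TPM keeps no depth, so the precision that read counts would give is unknown. No 2 of the 24 libraries held identical values (0 of 276 pairs, Pearson r of log2 values from 0.917 to 0.989), and all were kept, grouped by their labels.

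Of 54752 genes, 54723 IDs matched GENCODE M21 and 26504 were at 0 in every library. Genes above 1 TPM in at least 1 library (12373) entered limma 3.58.1 (R 4.3.3) on the log2(TPM + 1) scale, in 1 fit of 4 group means over all 24 libraries, with Benjamini-Hochberg adjustment over all tested genes. Both thresholds (adjusted p 0.1, fold change 2) follow the study's methods. The exact permutation test of the rank sum was two-sided and adjusted over all tested genes, not over the chaperones as first planned, and that of 4 ratios in 4 comparisons over 16 tests. The limma p-values set a difference between groups against the spread between mice, and the exact ones rest on the ranks of mice. Neither accounts for the place of sampling, which went with flight. Python 3.11.15 served for the rest, with scipy 1.17.1, pandas 2.3.3, matplotlib 3.10.9 and numpy 2.4.6. Scripts were tested on simulated data.

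The genes and lists were chosen with earlier results of these data known. Named genes were the chaperones, Nfe2l2, Hsf1 and Hsf2, of each further list up to 2 genes per direction and comparison with the largest change among those that passed at a mean of at least 5 TPM (not all are printed), and the 5 genes most like the chaperones. Alternatives were a pseudocount of 0.1, other filters on low values, median-of-ratios scaling, quantile normalization, TPM without 5 small RNAs, removal of the GC content and length trend (splines with 3 degrees of freedom), a mean-expression trend, the compared groups alone, other thresholds, Hspa1a and Hspa1b summed, blocking on the mouse number, and omission of each library. Leaving out libraries with over 50% of TPM in small RNAs was added after the data were seen. Promoter windows came from RefSeq on GRCm38.p6.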

Additional observations from a re-analysis of the deposited data

Results flagged for a closer look

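Of 60 groups of 6 mice checked for a mouse far from the other 5, over 15 quantities, 4 held one, and chance gives about 1 in 20 groups. Hspa1a was at 0.44 TPM in FL-KO mouse 11, against 0.1 to 0.2 TPM in the other FL-KO mice. Dnajb1 was at 13.2 TPM in FL-KO mouse 1, against 8.18 to 9.68 TPM in the others. The ratio of Hspa1a and Hspa1b to Hspa8 (in thousandths) was 5.12 in GC-KO mouse 1, against 2.28 to 3.18 in the others. Hspe1/Hspd1 was 2.26 in GC-WT mouse 10, against 1.17 to 1.44 in the others, and lay in the range of GC-KO mice.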

How the results depend on the processing

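Among the chaperones, the count of DEGs was 0 in every comparison as reported, and stayed 0 without each single library (range 0 to 0). It was 1 in GC-KO vs. GC-WT with a pseudocount of 0.1 (Bag3). In FL-KO vs. FL-WT it was 1 with a pseudocount of 0.1 (Bag3), 1 without small RNAs (Bag3) and 1 without the libraries above 50% small RNA (Hsp90ab1). With no minimum fold change, it was 3 with flight in WT and 3 in Nrf2-KO mice, and 5 with the knockout on the ground and 6 in flight.

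Of 45 single results, 17 passed an adjusted p under 0.1. With median-of-ratios scaling, Hsp90aa1 in FL-WT vs. GC-WT turned to 0.02, Hsp90ab1 in FL-KO vs. GC-KO to 0.06 and Hspa8 in FL-KO vs. FL-WT to 0.12 on the log2 scale. With the GC content and length trend removed, Dnajb1 and Bag3 in FL-KO vs. GC-KO turned to 0.0 and 0.06, and to the same values, 0.0 and 0.06, with the replicate block added. The cause was not tested. Without read counts, the precision of Bag3, Hspa1a and Hspa1b at their low levels is unknown.

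Mouse numbers are shared by ground and flight mice of a genotype, and nothing in the labels says that they pair the mice. The correlation of same-numbered mice's deviations from their group means ran from -0.026 to 0.273. With the replicate block, 5 chaperones were lower at an adjusted p under 0.1 with flight in WT mice and 5 in Nrf2-KO mice, in place of 3 and 3, and 0 DEGs were found. Of all genes, 49.1% and 60.5% were lower with the block, in place of 39.0% and 53.1%.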
